A study of Mus musculus with 9 samples.

Results

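The clustered histone genes are the mouse genes for the replication-dependent histones, which lie side by side in a few genomic clusters. All entries of the count tables whose symbol begins with Hist1h, Hist2h, Hist3h or Hist4h were taken, which gave 70 genes among 54532 entries. They comprise 6 linker histone H1 genes, 20 H2A, 19 H2B, 12 H3 and 13 H4 genes, 3 of them annotated as pseudogenes. The cluster on chromosome 13 (Hist1) holds 56 of them, chromosome 3 (Hist2) holds 10, chromosome 11 (Hist3) holds 3 and chromosome 6 (Hist4) holds 1.

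The 9 bulk RNA-seq libraries came from tumours that grew for 16 days under the skin of C57BL/6 mice after injection of B16-F10 cells, a mouse melanoma line. The cells carried hairpin 1 against Fbxo38, hairpin 2 against Fbxo38, or a control hairpin, with 3 libraries in each group. Fbxo38 encodes an F-box protein, which picks substrates for a ubiquitin ligase. The genotype labels of the 6 libraries with Fbxo38 hairpins run from FBXO38 to FBXO43, and the groups follow the sample titles. Since no label says that replicates were separate animals, each p-value measures only how these samples spread, which may be technical.

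Histones package DNA into nucleosomes, with H2A, H2B, H3 and H4 in the core and H1 on the linker. Most clustered genes are transcribed in S phase, when new DNA must be packaged. Their messages end in a stem-loop in place of a poly(A) tail. The stem-loop is bound by SLBP, and the message is cleaved after it with the help of the U7 ribonucleoprotein. Some clustered genes also give messages with a longer end and a poly(A) tail, as described for Hist1h1c, Hist1h2bc and Hist2h2be.

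The stem-loops are shown because they are what sets these messages apart from other mRNAs. The longest GENCODE M21 transcript (GRCm38) of each gene was searched. Only stems that open with GG and close with CC were sought, around a loop starting with T and holding T or C at base 3. Other forms could not be found. In 45 of the 70 genes, a perfectly paired stem of 6 bases around a loop of 4 bases lay after the coding region. These took 8 forms, with the stem in capitals below. The first form was that of 25 H1, H2A, H2B and H3 genes, among them Hist1h1c and Hist3h2a. Next comes the form of 7 H4 genes, then that of Hist1h4i and Hist2h4, and then that of Hist2h2ac.
Hist1h1c stem-loop: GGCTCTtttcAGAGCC
Hist1h4h stem-loop: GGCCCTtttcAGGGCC
Hist1h4i stem-loop: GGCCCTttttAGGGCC
Hist2h2ac stem-loop: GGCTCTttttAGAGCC
The 12 H4 genes with a stem-loop had 4 forms, the 33 other genes had 4, and no form occurred on both sides. Many genes without a stem-loop here have annotations that stop too soon to show it. Hist1h1b and Hist1h4k, for example, have 3 annotated bases after the coding region. The pseudogenes have no annotated coding region, so no stem-loop could be found in them.

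A poly(A) signal (AATAAA or ATTAAA) lay in the last 40 bases of the annotated transcript in 16 of the 70 genes. The ends of 4 abundant genes are shown because they hold such a signal, which is in capitals.
Hist1h1c end: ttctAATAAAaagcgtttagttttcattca
Hist2h2be end: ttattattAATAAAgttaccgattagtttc
Hist1h4i end: tctgtttacATTAAAagtattctatgctaa
Hist3h2a end: AATAAAataagagtacgtgtataacataag
In Hist1h1c the stem-loop starts at base 705 of a transcript of 1560 bases, so the annotated message runs on well past it. Hist2h2be and Hist1h2bc had no such stem-loop in their longest annotated transcript, the only one searched. That of Hist1h2bc has 2 exons and lacks a poly(A) signal in its last 40 bases.

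RefSeq promoters (GRCm38.p6, 250 bases before to 50 after the start) were matched for 62 of the 70 genes. The motifs searched on both strands were the TATA box TATAAA, the CCAAT box CCAAT and the octamer ATTTGCAT, none of which contains another. CCAAT was in all 6 H1, 18 H2A, 16 H2B and 10 H3 promoters but in 3 of 12 H4 promoters, against 37.9% of 27025 RefSeq promoters. TATAAA was in 56.5% of the 62, against 14.2% of all promoters. The octamer was in 7 H2A and 6 H2B promoters and in none of the others, against 1.75% of all promoters. These matches describe letters only.

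Promoters of the most abundant H1 and H4 genes, and of an H2A gene that faces an abundant H2B gene, are shown with motifs on either strand in capitals. That of Hist1h1c spans chr13:23738557-23738856 on the plus strand. That of Hist1h4i spans chr13:22041313-22041612 on the minus strand. That of Hist1h2ac spans chr13:23683910-23684209 on the minus strand.
Hist1h1c promoter: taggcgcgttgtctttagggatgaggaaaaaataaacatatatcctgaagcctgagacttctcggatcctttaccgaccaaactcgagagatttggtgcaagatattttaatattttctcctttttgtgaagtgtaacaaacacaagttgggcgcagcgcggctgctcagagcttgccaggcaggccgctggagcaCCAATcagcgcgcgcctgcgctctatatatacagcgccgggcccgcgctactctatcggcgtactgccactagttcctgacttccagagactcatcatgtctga
Hist1h4i promoter: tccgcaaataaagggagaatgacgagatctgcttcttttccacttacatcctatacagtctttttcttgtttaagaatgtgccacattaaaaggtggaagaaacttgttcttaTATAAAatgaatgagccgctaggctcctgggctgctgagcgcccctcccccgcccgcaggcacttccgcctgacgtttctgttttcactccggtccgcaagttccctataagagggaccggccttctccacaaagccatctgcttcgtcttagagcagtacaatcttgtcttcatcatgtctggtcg
Hist1h2ac promoter: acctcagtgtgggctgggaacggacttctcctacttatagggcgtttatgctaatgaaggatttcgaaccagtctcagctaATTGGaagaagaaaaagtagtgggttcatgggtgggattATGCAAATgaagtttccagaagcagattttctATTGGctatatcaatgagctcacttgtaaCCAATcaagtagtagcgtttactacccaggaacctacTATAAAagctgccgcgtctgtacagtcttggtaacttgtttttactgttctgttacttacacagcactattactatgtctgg
The Hist1h1c promoter holds a CCAAT box and no TATAAA, that of Hist1h4i a TATAAA and no CCAAT box, and that of Hist1h2ac all 3 motifs.

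Libraries held 15322163 to 17342554 counts. A pair of libraries stood apart on the leading principal component, which held 35.8% of the variance. They were replicate 1 labelled hairpin 1 (at 60.6) and replicate 2 of hairpin 2 (at -54.8). Fbxo38 stood at 20.9, 11.4 and 11.9 CPM (counts scaled to a fixed library size, TMM-adjusted) with hairpin 2 and at 21.6, 31.3 and 30.7 CPM in control. In the libraries labelled hairpin 1 it stood at 35.1, 20.96 and 22.0 CPM, so these are called by their label. The 7 melanocyte markers listed, among them Pmel, Tyr and Dct, summed to between 20450 and 26901 CPM in each library. The 6 fibroblast markers summed to 239 to 3228 CPM in libraries labelled hairpin 1, 262 to 1365 CPM with hairpin 2 and 161 to 389 CPM in control. The 6 erythroid markers reached 21449 CPM in replicate 2 of hairpin 2, against 421 to 4963 CPM in the other libraries.

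The clustered histone genes were a very small part of the sequenced RNA, with 1055 to 1873 counts per library, or 0.00642% to 0.0108% of the total. Of the 70 genes, 22 had a count in every library, 53 had at least 1 count in some library and 17 had none. Only 17 passed the low-count filter, at 0.607 CPM in at least 3 libraries, and were tested. A count of 0 allows up to 3 counts, or 0.173 to 0.196 CPM depending on the library, for counting error only.

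A handful of genes carried most of the signal. Hist1h1c, a linker histone gene, averaged 21.4 CPM over the 9 libraries. Hist1h2bc and Hist2h2be, which encode H2B, averaged 18.1 and 14.01 CPM, the H4 gene Hist1h4i 8.25 CPM and the H2A gene Hist3h2a 3.89 CPM. These 5 genes held 79.0% of all clustered histone counts, and 74.9% to 81.9% in single libraries. No H3 gene averaged more than the 1.08 CPM of Hist1h3c.

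Per kilobase of annotated transcript the order was Hist1h2bc at 15.7 ± 3.19 CPM per kb, Hist1h1c at 13.7 ± 5.08, Hist1h4i at 11.3 ± 1.21 and Hist2h2be at 5.35 ± 0.849 (SD over 9 libraries). The leading 3 overlap in their ranges over libraries. Hist1h1c ranged from 7.72 to 21.2 CPM per kb and Hist1h2bc from 10.2 to 19.5 CPM per kb. Hist2h2be, at most 6.51 CPM per kb, lay below every library of Hist1h4i, whose lowest value was 9.83. Hist1h2ae followed at 2.35 and Hist3h2a at 1.81 CPM per kb.

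Genes with a long annotated end held most counts. The 22 genes with at least 300 annotated bases after the coding region held 89.1% of the clustered histone counts, and the other 48 held 10.9%. The 22 include the 5 most abundant genes, which alone held 79.0%, so this share is mostly theirs. These counts are not scaled by transcript length. The 16 genes with a poly(A) signal near the annotated end held 62.8%. The 7 genes listed from general knowledge as giving polyadenylated messages (Hist1h1c, Hist1h2bc, Hist2h2be, Hist1h2ac, Hist1h2bk, Hist3h2a and Hist3h2ba) held 69.9%. Nearly all of these counts were those of the abundant Hist1h1c, Hist1h2bc, Hist2h2be and Hist3h2a. Hist1h2ac, Hist1h2bk and Hist3h2ba had 90, 10 and 6 counts in all. Whether the libraries were selected for poly(A) tails is not given in the sources used here. Beside this, 8 of 14 listed noncoding RNAs, most without a poly(A) tail, had no count in any library. Rn7sk, an abundant nuclear RNA that regulates transcription elongation, reached at most 0.588 CPM. Malat1, a nuclear RNA with a triple-helix end, stood at 43.3 to 95.6 CPM. The part of library preparation in these levels was not tested.

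**Figure D1:**
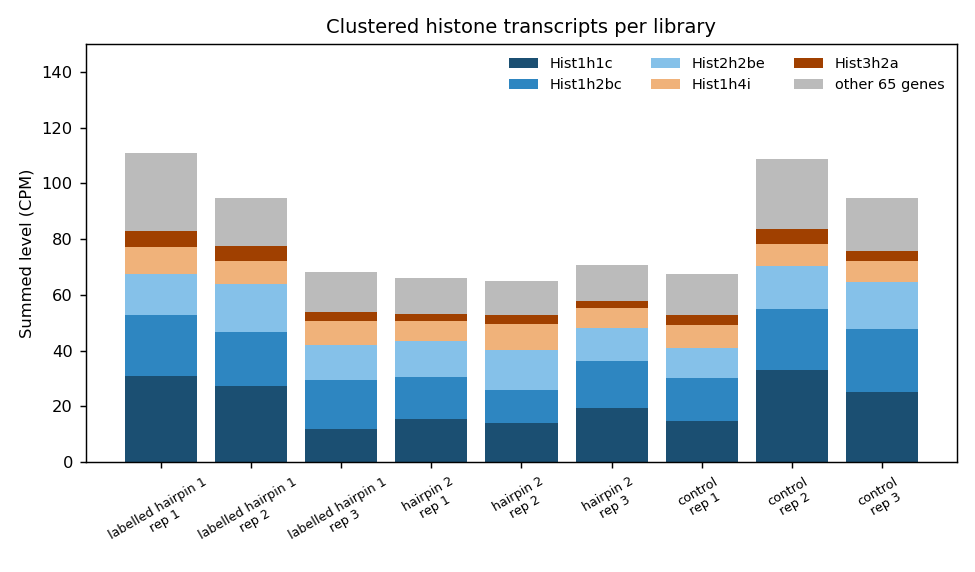
Summed level of the clustered histone genes (CPM, y axis) in each of the 9 libraries (x axis), stacked by the 5 most abundant genes and the other 65. The 3 hairpin 2 bars lie between 65.2 and 70.6 CPM, while libraries labelled hairpin 1 and control libraries each hold both low and high bars.

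Many members share much of their sequence with other genes. A window of 50 bases was called shared if it also occurs, on either strand, in another gene's transcript. Genes annotated over the same place were not left out, and 26 members overlap another gene. Shared windows therefore mix such overlap with copies elsewhere. For 20 genes, at least 80% of windows were shared. These held 119 counts in all (0.986% of clustered histone counts), and 12 of them had no count in any library. All 5 genes whose windows were all shared, Hist2h2aa1, Hist2h2aa2, Hist2h2bb, Hist2h3b and Hist2h3c1, had none. How the authors' counting treated reads that fit several genes is not given in the sources used here, so a zero of such a gene cannot be told apart from reads left uncounted. Hist2h2be shares none of its windows and Hist1h1c 8.5%, whereas Hist1h2bc shares 30.6%, Hist1h4i 28.9% and Hist3h2a 31.5%. On their own strand, 7 members overlap another gene, so their counts are uncertain. Hist1h2be and Hist1h1e overlap each other, Hist3h2a overlaps Trim17 and Hist1h2ac overlaps Gm24991. Hist2h2aa1, Hist2h2bb and Hist2h3c1, which had no count, are the others.

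**Figure D2:**
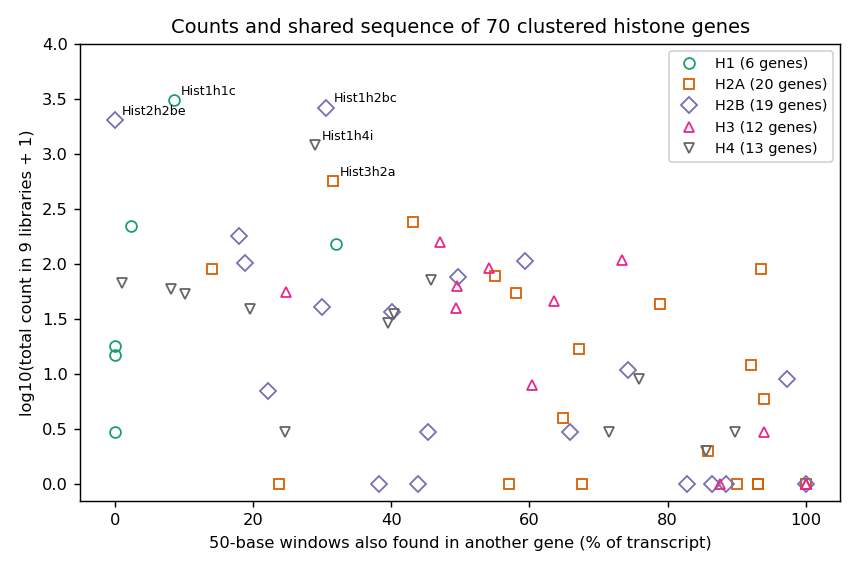
Total count over 9 libraries, as log10(count + 1) (y axis), against the share of 50-base windows of the transcript that occur in another gene (percent, x axis) for each of the 70 genes, marked by family. Of the 20 genes with at least 80% of windows shared, 12 lie at 0 counts, and the 5 labelled abundant genes share at most 31.5%.

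H2A and H2B genes often lie head to head with their promoters between them. Of 14 such pairs, with starts 173 to 306 bases apart, 9 had counts. Partner levels were far apart in some pairs and close in others. Hist1h2bc averaged 15.7 CPM per kb and Hist1h2ac, which starts 251 bases away, 0.248 CPM per kb. Hist2h2be averaged 5.35 and its neighbour Hist2h2ac 1.02 CPM per kb, while Hist1h2ae averaged 2.35 and its H2B neighbour Hist1h2bg 0.831 CPM per kb. Hist1h2ah and Hist1h2bk, with 11 and 10 counts in all, averaged 0.186 and 0.148 CPM per kb. In the pair of Hist1h2an and Hist1h2bp there were 1 and 2 counts.

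With hairpin 2, the summed level of the clustered histone genes averaged lower than in control, though no gene was called. The summed level was 66.1, 65.2 and 70.6 CPM in hairpin 2 libraries, against 67.5, 108.8 and 94.8 CPM in control. The hairpin 2 libraries were close together, while control replicate 1 lay among them and the other control libraries above. The means were 67.3 ± 2.89 CPM with hairpin 2 and 90.4 ± 20.97 CPM in control (SD, n = 3 each), a log2 ratio of -0.43. Without control replicate 2 it was -0.29. In bulk tissue, fewer cells that express a gene and less RNA per cell cannot be told apart.

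Of all 53 clustered histone genes with a count, 40 had a lower and 12 a higher mean CPM with hairpin 2 than in control. The same count was not made over all genes of the series, so nothing is read from it. Among the 17 tested, 15 had a negative log2 fold change, against 48.5% of all 14193 tested genes. Their median was -0.57 and that of all tested genes 0.01. Of these 17 genes, 6 passed the filter with no hairpin 2 library above its level, so their lower value is in part set by the filter, and nothing is read from the counts over the 17. Without the filter the median over the 53 genes was -0.81. The 36 genes added in this way hold only 918 counts in all, so nothing is read from this median. The median of tested members was -0.35 without control replicate 2 and -0.33 when only these groups were fitted. With edgeR's quasi-likelihood test, 0 of the 17 had an adjusted p under 0.05, as had 0% of all genes. At an unadjusted p under 0.05, 3 of the 17 were lower and 0 higher, against 6.27% lower and 8.14% higher among all genes. DESeq2 and limma-voom called 0 of the 17 as well, while over all genes DESeq2 called 280 (1.97%) and limma-voom 0%.

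The 3 with the smallest p were H2B genes. Hist1h2bj stood at 0.251, 0.298 and 0.304 CPM with hairpin 2, against 1.07, 1.37 and 0.891 CPM in control. These are 4 to 5 counts in each hairpin 2 library and 15 to 21 in each control library, and the groups do not overlap. The log2 fold change was -1.94 (SE 0.52; edgeR unadjusted p = 0.00362, adjusted p = 0.242). In 4 tested members, Hist1h2bj, Hist1h2bh, Hist1h3g and Hist3h2a, all hairpin 2 libraries lay below all control libraries, as in 10.2% of all tested genes. The first 3 of these passed the filter through the other groups alone, so nothing is read from this count.

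Hist1h2bh stood at 0.125, 0.298 and 0.304 CPM with hairpin 2, against 0.537, 0.588 and 1.43 CPM in control (log2 fold change -1.78, SE 0.65; edgeR adjusted p = 0.277). Hist1h2bc, the most abundant H2B gene, stood at 14.98, 11.7 and 17.2 CPM with hairpin 2, against 15.7, 21.9 and 22.5 CPM in control. Replicate 3 of hairpin 2 lay above the lowest control library, so the groups overlap. Its log2 fold change was -0.45 (SE 0.19; edgeR unadjusted p = 0.0404, adjusted p = 0.323).

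Among the other abundant members, the linker gene Hist1h1c stood at 15.5, 14.1 and 19.3 CPM with hairpin 2, against 14.7, 33.0 and 25.2 CPM in control. Control replicate 1 lay within the hairpin 2 values (log2 fold change -0.57, SE 0.37; edgeR adjusted p = 0.504). Hist3h2a stood at 2.57, 3.04 and 2.37 CPM with hairpin 2, against 3.34, 5.35 and 3.39 CPM in control, with no overlap (-0.59, SE 0.31; edgeR adjusted p = 0.402). An exact permutation test of Hist3h2a, two-sided, gave 0.1, which is the lowest p possible with 3 libraries against 3.

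Hist2h2be and Hist1h4i were nearly level between the groups. Hist2h2be stood at 13.0, 14.4 and 11.6 CPM with hairpin 2, against 10.8, 15.5 and 16.9 CPM in control (log2 fold change -0.15, SE 0.20). Hist1h4i stood at 7.15, 9.53 and 7.36 CPM with hairpin 2, against 8.23, 7.90 and 7.73 CPM in control (0.01, SE 0.19). Hist1h3c, an H3 gene, had the highest fold change of the 17, at 0.61 (SE 0.62; edgeR adjusted p = 0.678).

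**Figure D3:**
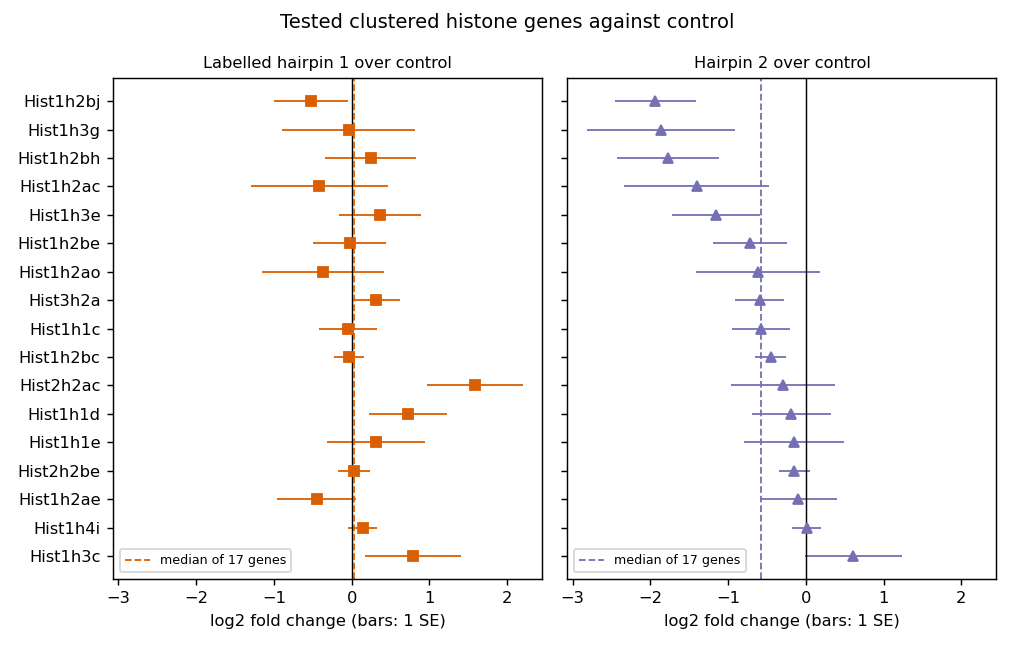
log2 fold change with 1 SE (x axis) of the 17 tested clustered histone genes (rows, in the order of their hairpin 2 values) for the libraries labelled hairpin 1 (left) and for hairpin 2 (right), each against control. The dashed median lies at 0.03 on the left and at -0.57 on the right, and no gene was called in either panel.

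The lower hairpin 2 sums were not those of the abundant genes alone. Without the top 5, the other 65 genes summed to 12.9, 12.5 and 12.8 CPM with hairpin 2, against 14.8, 25.1 and 19.1 CPM in control. All hairpin 2 libraries lay below all control libraries in this sum, which has no test. Without Hist1h1c the sum of the remaining 69 genes was 50.6, 51.1 and 51.3 CPM with hairpin 2, against 52.9, 75.7 and 69.6 CPM in control.

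In the libraries labelled hairpin 1, no shared direction was seen. The summed level was 110.8, 94.8 and 68.2 CPM in these libraries, against 67.5, 108.8 and 94.8 CPM in control. The groups cover the same range, with means of 91.3 ± 21.5 CPM labelled hairpin 1 and 90.4 ± 20.97 CPM in control (SD, n = 3 each), a log2 ratio of 0.01. Of the 53 genes with a count, 30 had a lower and 21 a higher mean than in control. This count has no share over all genes beside it, so nothing is read from it. Among the 17 tested, 8 had a negative log2 fold change, against 47.4% of all tested genes, and the median was 0.03.

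No member was called by edgeR, DESeq2 or limma-voom, and each of these called 0% of all genes. At an unadjusted p under 0.05, 1 of the 17 was higher and 0 lower, against 1.85% higher and 1.32% lower among all genes. That gene was Hist2h2ac, an H2A gene of the chromosome 3 cluster. It stood at 1.48, 0.873 and 0.631 CPM in libraries labelled hairpin 1, against 0.238, 0.326 and 0.416 CPM in control. All 3 libraries labelled hairpin 1 lay above all control libraries (log2 fold change 1.59, SE 0.62; edgeR unadjusted p = 0.027, adjusted p = 1). It passed the filter only through the libraries labelled hairpin 1, so it had to be higher there.

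The linker gene Hist1h1d stood at 3.37, 1.68 and 1.32 CPM in libraries labelled hairpin 1, against 1.25, 1.83 and 0.773 CPM in control (0.73, SE 0.50; edgeR adjusted p = 1). Its highest value was in replicate 1, the library that stands apart. Hist1h1c stood at 30.9, 27.5 and 12.0 CPM in libraries labelled hairpin 1, beside the control values given above, and the groups overlap (-0.05, SE 0.37). Hist1h2bc was at 22.1, 19.3 and 17.5 CPM in libraries labelled hairpin 1 (-0.03, SE 0.19).

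**Figure D4:**
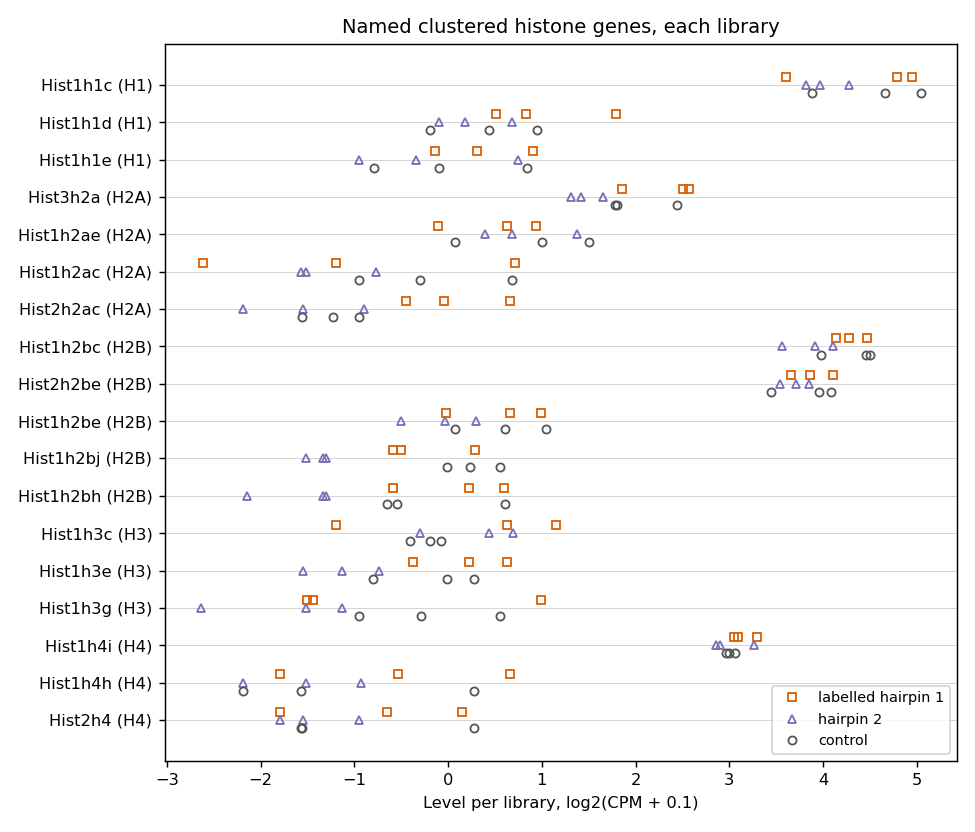
Level of the 18 named clustered histone genes as log2(CPM + 0.1) (x axis) in each library, with libraries labelled hairpin 1 as squares, hairpin 2 as triangles and control as circles. For Hist1h2bj, Hist1h2bh and Hist3h2a the 3 triangles lie below every circle and every square, and for Hist2h2ac the 3 squares lie above the rest. Hist1h2bj and Hist1h2bh passed the filter with no hairpin 2 library above its level. Hist2h2ac passed it only through the libraries labelled hairpin 1. Nothing is read from where the symbols of Hist1h2bj, Hist1h2bh and Hist2h2ac lie.

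Between the hairpins, the summed level averaged lower with hairpin 2. The summed level fell in a narrow band with hairpin 2, as above, and overlapped the libraries labelled hairpin 1 only through replicate 3 of that label, at 68.2 CPM (log2 ratio -0.44). Of the 53 genes with a count, 32 had a lower and 17 a higher mean with hairpin 2. Here too the count was not made over all genes, so nothing is read from it. Among the 17 tested, 16 had a negative log2 fold change, against 49.8% of all genes, with a median of -0.70. This comparison shares its hairpin 2 libraries with the comparison against control. It called 0 of the 17 by edgeR, DESeq2 or limma-voom. Over all genes edgeR and limma-voom called 0% and DESeq2 89 genes (0.627%). At an unadjusted p under 0.05, 5 of the 17 were lower and 0 higher, against 5.23% lower and 6.42% higher among all genes.

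These 5 were Hist1h2bh, Hist2h2ac, Hist3h2a, Hist1h3e and Hist1h2bj. In all 5, and in Hist1h2bc, every hairpin 2 library lay below every library labelled hairpin 1, against 7.67% of all tested genes. Hist1h2bh stood at 0.125, 0.298 and 0.304 CPM with hairpin 2, against 1.06, 1.41 and 0.568 CPM in libraries labelled hairpin 1 (log2 difference -2.02, SE 0.65; edgeR unadjusted p = 0.0108, adjusted p = 0.375). Hist3h2a stood at 2.57, 3.04 and 2.37 CPM with hairpin 2, against 5.86, 5.58 and 3.53 CPM in libraries labelled hairpin 1 (-0.90, SE 0.31; edgeR adjusted p = 0.376). Hist1h3e, an H3 gene, stood at 0.501, 0.357 and 0.243 CPM with hairpin 2, against 1.06, 0.672 and 1.45 CPM in libraries labelled hairpin 1 (-1.52, SE 0.56; edgeR adjusted p = 0.385). Without replicate 1 labelled hairpin 1 the median of the tested members was -0.27, without replicate 3 of that label -1.02, and without both libraries that stand apart -0.25. Hist1h2bh, Hist2h2ac, Hist1h3e and Hist1h2bj passed the filter with no hairpin 2 library above its level, so nothing is read from these counts.

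By family, the hairpin 2 means lay below control for each of the 5 histones, without a test on these sums. Control replicate 1 lay within the range of the hairpin 2 libraries for H1, H2B, H3 and H4. For H2A alone, all hairpin 2 libraries lay below all control libraries. H1 genes summed to 18.4 ± 3.31 CPM with hairpin 2 and 26.8 ± 10.03 CPM in control (SD, n = 3 each here and below), and H2A genes to 6.20 ± 0.958 CPM with hairpin 2 and 9.17 ± 2.07 CPM in control. H2B genes summed to 30.1 ± 0.892 CPM with hairpin 2 and 39.5 ± 8.58 CPM in control. H3 genes summed to 2.83 ± 0.345 CPM with hairpin 2 and 3.996 ± 0.995 CPM in control. H4 genes stood at 9.78 ± 1.20 CPM with hairpin 2 and 10.9 ± 1.18 CPM in control, the smallest of the 5 log2 ratios at -0.16. In libraries labelled hairpin 1 the sums were 27.2 ± 10.9 CPM for H1, 9.23 ± 2.21 for H2A, 38.4 ± 4.92 for H2B, 4.83 ± 3.06 for H3 and 11.6 ± 1.62 for H4.

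Fold changes also ran with properties of the transcripts. The log2 fold changes of hairpin 2 against control ran with transcript length across 14106 genes (Spearman's rho 0.37), and with GC content (-0.25). The tested members have a median transcript length of 1156 bases, against 3205.5 for all tested genes. With each library's trend in length and GC content removed, the median of the 17 was -0.51 and 14 were negative. For the libraries labelled hairpin 1 against control, rho with length was -0.02.

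The summed clustered genes averaged 69.1 CPM per kb, with 54.8 to 93.4 over the 9 libraries. The 11 listed histone variant genes outside the clusters had mean levels of 0.367 (H2afy2) to 376 (H2afz) CPM per kb. H2afz, H3f3b, H1f0 and H3f3a each averaged above the clustered sum, and the other 7 below it. Selection for poly(A) tails and the handling of reads that fit several genes are not given. No order of these messages in the cells is therefore read from the levels. H2afz, the gene for the H2A variant at promoters, stood at 331 to 467 CPM per kb over the libraries. H3f3b, a gene for the replacement H3 histone, stood at 257 to 381 CPM per kb, and the linker gene H1f0 at 141 to 225 CPM per kb. H2afx, for the H2A variant marked at DNA breaks, averaged 66.0 CPM per kb and the linker gene H1fx 1.73. Of the 11 variant genes tested with edgeR, 0 were called. With hairpin 2, 6 of the 11 were lower than control, with a median of -0.12, and 5 were lower in libraries labelled hairpin 1, with a median of 0.01.

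The genes that make histone messages were expressed. Slbp, for the protein that binds the stem-loops shown above, stood at 67.8, 53.8 and 50.3 CPM with hairpin 2, against 67.96, 69.98 and 62.9 CPM in control (log2 fold change -0.22, SE 0.14; edgeR adjusted p = 0.465). In libraries labelled hairpin 1 it stood at 65.7, 59.0 and 52.5 CPM (-0.18, SE 0.14; edgeR adjusted p = 1). Of the 20 listed end-processing genes, edgeR called 0 in any comparison. The negative log2 fold changes numbered 12 with hairpin 2 and 16 in libraries labelled hairpin 1, each against control, beside 48.5% and 47.4% of all genes. Lsm11, a subunit of the U7 particle, stood at 31.8, 31.8 and 25.1 CPM with hairpin 2, against 30.6, 29.2 and 30.8 CPM in control.

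Of the 12 listed genes for transcription of histones, edgeR called 0. At an unadjusted edgeR p under 0.05, 3 were higher and 3 lower with hairpin 2, against 8.14% higher and 6.27% lower among all genes. With hairpin 2, 4 of the 12 had a negative log2 fold change (median 0.14), against 48.5% of all genes. In libraries labelled hairpin 1, 6 were negative, against 47.4%. Ccna2, for the S phase cyclin A, stood at 164.1, 164.2 and 152.6 CPM with hairpin 2, against 180.5, 184.0 and 207.9 CPM in control (-0.25, SE 0.09; edgeR adjusted p = 0.27). Of the 19 listed histone chaperones, 14 had a negative log2 fold change with hairpin 2 and 16 in libraries labelled hairpin 1, beside the same shares of all genes, and edgeR called 0. Atrx, for a remodeller that helps place a replacement H3 histone, stood at 318.1, 291.8 and 197.2 CPM with hairpin 2, against 180.4, 188.2 and 191.8 CPM in control (0.53, SE 0.17; edgeR adjusted p = 0.262).

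The 20 listed replication genes of S phase had mostly lower values than control in both hairpin groups. With hairpin 2, 19 of the 20 had a negative log2 fold change (median -0.20), against 48.5% of all genes, and 5 were lower at an unadjusted p under 0.05, against 6.27%. In libraries labelled hairpin 1, 19 of the 20 were negative as well (median -0.22), against 47.4% of all genes, and 8 were lower at an unadjusted p under 0.05, against 1.32%. Both comparisons use the same control libraries, and edgeR called 0 of the 20 in each. Mcm5, part of the helicase that opens DNA for replication, had 245, 249.98 and 238 CPM with hairpin 2 and 224, 274 and 254 CPM in libraries labelled hairpin 1, against 315, 292 and 314 CPM in control. The edgeR adjusted p was 0.242 for hairpin 2 and 1 for the libraries labelled hairpin 1. Replicate 1 labelled hairpin 1 had the highest summed clustered histone level of the 9 libraries, at 110.8 CPM, and the lowest summed level of the S phase list, at 2700 CPM. The S phase list summed to 2910 to 3306 CPM with hairpin 2 and 3414 to 3624 CPM in control. The part of cell cycle phase and of host cells in the histone levels was not tested.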

How the data were processed

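The deposited files hold the authors' whole-number counts per gene symbol. STAR 2.7.0d, Cufflinks, GRCh38 and hg38 are named in the submitters' processing notes; both builds are human, while the symbols are mouse. How reads were assigned to genes (tool, annotation, strand, reads that fit several genes) is not given in the sources used here. Groups came from the sample titles. The members, gene lists and tests were chosen with earlier results of these data known.

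Counts of all 9 libraries were fitted together by a robust two-sided quasi-likelihood test (edgeR 4.0.16, R 4.3.3) with TMM scaling, after filterByExpr at a minimum count of 10 and a total of 15. P-values were Benjamini-Hochberg adjusted over 14193 genes, with a threshold of 0.05. CPM values use TMM-scaled library sizes. The steps were tested on simulated data. Each symbol of the 70 stood on 1 entry. Named members were the 3 of each family with the highest mean CPM and the 3 with the smallest p in each comparison; of each gene list, up to 3 by mean CPM could be named. Slbp, Lsm11, Mcm5, Atrx and Rn7sk were named for their role, with their values known. Coordinates, transcripts and shared windows come from GENCODE M21 (GRCm38), with the longest transcript taken for each gene. Library totals limit the precision, and the floor of 3 counts covers counting error only. Alternatives used DESeq2 1.42.0, limma-voom (limma 3.58.1), other scalings, no filter, fewer groups, a replicate block and fewer libraries. Removing the length and GC trend (mgcv 1.9.3) and the sum without Hist1h1c were added after seeing the data.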

Additional observations from a re-analysis of the deposited data

How the results depend on the processing

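In each comparison 0 of the clustered histone genes were called under the 18 alternatives run, among them DESeq2, which called 280 genes of all for hairpin 2 against control and 89 for hairpin 2 against hairpin 1. The median of members stayed negative for hairpin 2 against control (-0.81 to -0.33, and -0.71 to -0.35 leaving out 1 library). So did the log2 ratio of summed levels (-0.60 to -0.29 leaving out 1 library). The -0.81 is that of the 53 genes without the filter. In the main fit 6 of the 17 tested members passed the filter with no hairpin 2 library above its level. The median over the 17 thus depends in part on the filter, and nothing is read from its sign. For hairpin 2 against hairpin 1 the median was -0.32 without the low-count filter, -0.25 without both libraries that stand apart, and -1.02 to -0.27 leaving out 1 library; the cause was not tested. For libraries labelled hairpin 1 against control the median was -0.14 to 0.19 leaving out 1 library. The replicate block gave medians of 0.03 for libraries labelled hairpin 1 and -0.46 for hairpin 2 against control, and -0.70 between the hairpins. Same-numbered libraries had correlations of -0.41 to 0.14, so the numbers were not taken to pair samples. Summing entries of 1 symbol was not run, since no member has several.

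Of 852 values of named members under alternatives, 44 changed sign, none of them called, and 0 became called; the cause was not tested. For libraries labelled hairpin 1 against control, leaving out 1 library gave -0.32 to 0.26 for Hist1h1c, -0.054 to 0.91 for Hist1h1e, -2.12 to 0.19 for Hist1h2ac, -0.18 to 0.059 for Hist1h2bc, -0.31 to 0.24 for Hist1h2be, -0.068 to 0.84 for Hist1h2bh, -1.67 to 0.51 for Hist1h3g and -0.14 to 0.16 for Hist2h2be. For hairpin 2 against control it gave -0.45 to 0.14 for Hist1h1d, -0.84 to 0.43 for Hist1h1e, -0.46 to 0.27 for Hist1h2ae, -0.14 to 0.086 for Hist1h4i and -0.83 to 0.048 for Hist2h2ac. For hairpin 2 against hairpin 1 it gave -1.51 to 0.70 for Hist1h2ac, -0.0012 to 0.60 for Hist1h2ae and -0.63 to 0.37 for Hist1h3c. Without both libraries that stand apart, Hist1h1e was at -0.051 labelled hairpin 1 and 0.17 with hairpin 2 against control, and at 0.22 between the hairpins; Hist1h4i was at -0.15 with hairpin 2 against control. Between the hairpins, Hist1h2ac was then at 0.88, Hist1h2ae at -0.26 and Hist1h3c at 0.62. With library totals only, Hist2h2be was at -0.00072 labelled hairpin 1 against control. With the length and GC trend removed, Hist1h2ae was at 0.0498 with hairpin 2 against control, and Hist1h3c at 0.024 and Hist1h4i at 0.026 between the hairpins. With limma-voom, Hist1h3c was at 0.064 between the hairpins. Depth limits all members: outside the top 5, a library held 206 to 471 counts for 65 genes.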

Other observations

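The 3 clustered histone genes known from testis were nearly silent. Hist1h2ba and Hist1h2aa had no count in any library. The sum of the 3, all from Hist1h1t, reached at most 0.252 CPM. Each of the 13 H4 and 6 H1 genes had a count, while 8 of the 20 H2A, 6 of the 19 H2B and 3 of the 12 H3 genes had none. Hist4h4, the H4 gene on chromosome 6, had 58 counts, of which 22 lay in replicate 2 labelled hairpin 1.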
